A study of Mus musculus with 34 samples.

Results

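The CC chemokines Ccl2, Ccl3, Ccl4, Ccl6, Ccl7, Ccl9 and Ccl12 and the receptors Ccr1 and Ccr2 were followed in the left ventricle (LV) of CFW mice post-MI. The genes were chosen by symbol, and all 9 were listed in both deposited tables, which together list 17410 genes. CC chemokines are small secreted proteins with adjacent cysteines that draw leukocytes along a gradient. Ccl2, Ccl7 and Ccl12 are ligands of Ccr2, the receptor by which Ly6C-high monocytes leave the bone marrow and enter injured tissue. Ccl3, Ccl4, Ccl6 and Ccl9 belong to the macrophage inflammatory protein branch, whose members Ccl3, Ccl6 and Ccl9 signal through Ccr1, a receptor of monocytes and neutrophils. In the infarcted heart, monocytes that carry Ccr2 are known to follow the first wave of neutrophils.

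The infarcts came from a ligature left in place on the left anterior descending coronary artery. The first table held 10 libraries from uninjected mice, with sham hearts (n = 3, libraries D, H and I) and hearts taken at 4 h (n = 3, C, D and E) and 24 h post-MI (n = 4, C, D, G and H). The labels of these sham hearts state that no operation was done, whereas their titles read sham. The second table held 24 libraries, with uninjected sham hearts labelled 4 h (n = 2) and infarcted hearts injected in the border zone, right after ligation, with AC modRNA or Luc modRNA and taken at 4 h (n = 4 each), 24 h (n = 3 each, libraries A, C and D) and 48 h (n = 4 each). modRNA is a synthetic messenger RNA with modified nucleosides, Luc modRNA encodes luciferase and serves as the control, and the labels do not spell out AC. Age and sex were not given, no infarcted heart of the second table was left uninjected, and its sham hearts were not injected. The sources used here say that each library was a separate mouse for the first table only, so in the second table p-values measure the spread between libraries.

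Values are CPM, a gene's reads relative to the scaled size of its library, and the tables were scaled separately, so tests were run within a table. The spacing of low values gave an estimated 12553519 to 18952669 reads per library in the first table and 17092911 to 22196926 in the second. The labels were checked with Asah1, the acid ceramidase gene, which lay between 42.5 and 13703 CPM in the 11 AC libraries and between 21.4 and 28.2 CPM in the 11 Luc libraries. The LV label was checked with the atrial marker Myl7, which was at most 0.147 CPM in the sham and 4 h hearts of the second table but between 9.05 and 112 CPM in AC hearts and between 17.0 and 61.3 CPM in Luc hearts at 24 h. Library G at 24 h in the first table had the lowest summed neutrophil markers of its group, at 311 CPM, against up to 1953 CPM in the others. In the second table, time point and library set cannot be told apart, and the titles of the 24 h libraries alone carry the letters Br, which the labels do not explain. The comparisons of 24 h with 4 h and 48 h, and of 24 h between the tables, rest on those libraries.

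The 7 ligand genes lie on chromosome 11 of mm10 in 2 clusters. Ccl2, Ccl7 and Ccl12 share the stretch chr11:82035577-82103400 on the plus strand, a span of 67.8 kb. Ccl9, Ccl6, Ccl3 and Ccl4 lie 1469.5 kb further on, at chr11:83572917-83664684, a span of 91.8 kb in which only Ccl4 is on the plus strand. Ccr1 (minus strand) and Ccr2 (plus strand) are 2 genes of the receptor cluster on chromosome 9, at chr9:123962126-124109141. Near-identical stretches between neighbours of a cluster can let reads be divided between them by the estimation step of the counting. The estimated reads of Ccl3, Ccl4 and Ccl12 were whole numbers in every library. Those of Ccr2 were fractional in most, such as 1522.6 in uninjected library C at 24 h, so its values rest in part on that step. The other genes were not examined in this way. The RefSeq span of Ccl4 also overlaps Ccl3 on the opposite strand, and whether strand was used in counting was not given.

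RefSeq start sites (GRCm38.p6) were in the promoter table for 6 of the 9 genes, namely Ccl3, Ccl6, Ccl9, Ccl12, Ccr1 and Ccr2, but not for Ccl2, Ccl4 and Ccl7. Over 250 bases before and 50 after the start, on both strands, the windows were searched for TATAAA, for the AP-1 motif TGANTCA and for the NF-kB motif. Ccl12 held TATAAA 31 bases before its start, and Ccl9 held all 3 motifs, with the NF-kB match 35 bases before its start. Stretches of these genes are shown because no other of the 6 windows held a match. In the Luc hearts described below, Ccl12 was called from 4 h and Ccl9 at 48 h. Ccl3, called from 4 h, and Ccl6, called at 48 h, held no match. The TATAAA matches of Ccl9, 224, 94 and 92 bases before its start, are not shown. A link between motif and time of call was not tested. Capitals mark the motif, 5′ to 3′ on the gene's strand.
Ccl12, TATAAA, chr11:82101802-82101831, plus strand: ctctttgtgtctTATAAAagtcagatggaa
Ccl9, NF-kB motif, chr11:83578652-83578681, minus strand: tttgaactttGGAAAGCCCCaagtcacctt
Ccl9, AP-1 motif, chr11:83578671-83578700, minus strand: tttactctctcTGAATCAatttgaactttg
Of 32851 promoters of the same length, 13.62% held TATAAA, 7.81% the AP-1 motif and 4.51% the NF-kB motif, so the matches are common and are given as a description. The windows of Ccl3, Ccl6, Ccr1 and Ccr2 held none of the 3.

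In uninjected hearts at 4 h, 2 of the 9 genes were called above sham, the Ccr2 ligands Ccl2 and Ccl7 (limma on log2(CPM + 1), Benjamini-Hochberg adjusted p-value over all genes tested under 0.05). Of all 12487 genes tested, 2.37% were called at 4 h and 1.55% were higher, with 194 higher and 102 lower, or 167 and 175 after every library was rescaled to the same total. Ccl2 was at 1.41, 1.21 and 1.27 CPM in the sham libraries D, H and I and at 12.8, 14.9 and 11.1 CPM in the 4 h libraries C, D and E. The ranges do not overlap, and the means differed 9.99 ± 1.68-fold (propagated SD, n = 3 and 3), with a log2 fold change of 2.59 ± 0.19 (SE) and an adjusted p-value of 1.8e-05. Ccl7, a second ligand of Ccr2, was at 1.12, 0.847 and 0.715 CPM in sham and 5.45, 7.85 and 4.92 CPM at 4 h, again without overlap (log2 fold change 1.88, adjusted p = 0.0018).

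Ccl3 and Ccl4 stood apart in the same way but were listed so low that the call depended on the pseudocount. Ccl3, an activator of monocytes and neutrophils, was at 0.145, 0.242 and 0.162 CPM in sham, an estimated 4, 6 and 5 reads, and at 1.58, 2.54 and 1.66 CPM at 4 h. Its log2 fold change of 1.29 gave an adjusted p-value of 0.057, and 0.0017 with a pseudocount of 0.1 in place of 1. For Ccl4, at 0.108, 0.161 and 0.162 CPM in sham and 1.20, 2.06 and 1.28 CPM at 4 h, the values were 1.12, 0.076 and 0.0016. The ratio of pooled reads was 10.44 for Ccl3 (95% exact interval 6.12 to 19.16) and 10.22 for Ccl4 (5.61 to 20.38), intervals that cover counting error only.

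The remaining ligands and both receptors did not pass the test at 4 h. Ccl12, the third Ccr2 ligand, was at 0.615, 0.726 and 1.33 CPM in sham and 1.02, 2.25 and 1.28 CPM at 4 h, which overlap (adjusted p = 0.4). Ccl6 (log2 fold change 0.58, adjusted p = 0.55) and Ccl9 (0.78, 0.32), ligands made by macrophages, overlapped sham. Ccr1 was higher in each 4 h library, at 2.07, 6.27 and 2.86 CPM against 1.70, 1.41 and 1.36 CPM, with an adjusted p-value of 0.3. Ccr2 was at 1.62, 2.70 and 2.26 CPM at 4 h and 1.64, 3.66 and 3.02 CPM in sham (log2 fold change -0.21, adjusted p = 0.78).

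**Figure D1:**
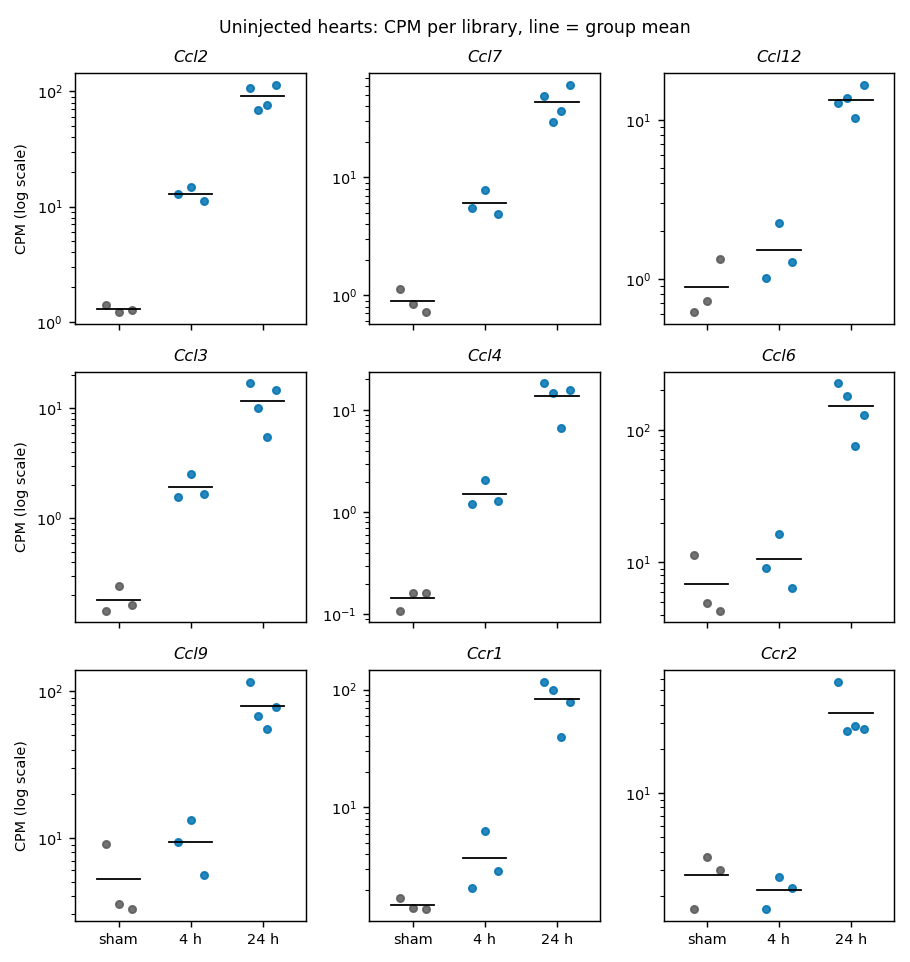
CPM of each gene (log scale) in every library of the uninjected hearts, by group, with a line at the group mean. At 24 h post-MI every gene lay above its sham and 4 h values, whereas at 4 h only Ccl2, Ccl3, Ccl4, Ccl7 and Ccr1 were clear of sham.

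At 24 h post-MI, all 9 genes had risen, and for each of them the 24 h libraries lay above all sham and all 4 h libraries. Of all genes, 66.0% were called at 24 h against sham and 35.6% were called higher. At 24 h against 4 h these shares were 63.9% and 37.2%, so that a rise alone was common. The median log2 fold change of the 9 genes against sham was 3.74, beside 0.04 over all genes tested. Ccl2 reached 107, 69.3, 75.8 and 114 CPM in libraries C, D, G and H, 70.8 ± 18.2-fold its sham mean (log2 fold change 5.30 ± 0.17, adjusted p = 1.6e-08). Ccl7 was at 48.6, 29.7, 36.5 and 61.2 CPM (49.2 ± 19.3-fold) and Ccl12 at 12.8, 13.8, 10.3 and 16.7 CPM (15.0 ± 7.16-fold).

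The macrophage inflammatory protein genes, not called at 4 h, rose by 24 h. Ccl6 was at 11.3, 4.92 and 4.32 CPM in sham and 224, 179, 75.2 and 130 CPM at 24 h (22.2 ± 15.7-fold), and Ccl9 at 9.04, 3.51 and 3.25 CPM and 116, 67.6, 55.1 and 78.2 CPM (15.1 ± 10.6-fold). Sham library D was the highest sham library for both. Ccl3 was at 17.0, 10.0, 5.52 and 14.6 CPM and Ccl4 at 18.3, 14.6, 6.73 and 15.6 CPM at 24 h, and the ratio of pooled reads to sham was 65.38 (39.49 to 117.15) for Ccl3 and 96.76 (55.23 to 187.68) for Ccl4. Library G was the lowest of the group for all 4 of these genes.

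Neither receptor was called at 4 h, and both rose between 4 h and 24 h. Ccr1 was at 117, 98.4, 39.2 and 78.4 CPM at 24 h, 55.7 ± 23.2-fold sham and 22.3 ± 16.0-fold the 4 h mean (log2 fold change 24 h over 4 h 4.15, adjusted p = 3.4e-06). Ccr2 was at 57.1, 26.4, 28.8 and 27.2 CPM, 12.6 ± 7.12-fold sham and 15.9 ± 7.82-fold the 4 h mean (log2 fold change 3.43, adjusted p = 2.5e-06). Library C held the highest Ccr2, Ccr1 and Ccl6 of the 4. All 9 genes stayed called with any library left out, library G included.

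Monocyte and neutrophil markers rose at 24 h, as these genes did. Of 12 monocyte and macrophage markers, 0 were called at 4 h and 10 were higher at 24 h, with summed levels of 144 to 232 CPM in sham, 172 to 198 CPM at 4 h and 578 to 1114 CPM at 24 h. Of the 7 neutrophil markers tested, 0 were called at 4 h and all 7 were higher at 24 h. Summed over the 9 neutrophil markers present, tested or not, levels were 2.02 to 3.64 CPM in sham, 7.97 to 32.5 CPM at 4 h and 311 to 1953 CPM at 24 h. The resident macrophage list had 1 higher and 3 lower of 6 at 24 h, with sums of 37.0 to 60.9 CPM against 49.6 to 71.2 CPM in sham. The 4 erythroid markers were all higher at 4 h (427 to 736 CPM against 157 to 241 CPM in sham). The atrial markers, from a list of Myl7, Sln, Nppa and Myl4, summed to 1150 to 1822 CPM at 24 h against 80.5 to 296 CPM in sham. Of these, 1 of 2 tested was called, so the sum can rest on 1 gene. The 7 cardiomyocyte markers summed to 20010 to 33251 CPM at 24 h against 41936 to 44620 CPM in sham. In tissue RNA, a change in the number of cells of a type and a change in RNA per cell cannot be told apart, and the part of these markers in the results was not tested.

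In Luc modRNA-injected hearts, 5 of the ligands were called from 4 h on, and Ccl6, Ccl9 and Ccr2 only at 48 h. Ccr1 was called from 24 h, although its log2 fold change to sham was alike at 4 h (1.21) and 24 h (1.25). These comparisons share the same 2 sham libraries. At 4 h, 5 of the 9 genes were higher than sham and 1.55% of all 12555 genes were called, 1.25% higher, with 157 higher and 37 lower, or 127 and 54 after rescaling to equal totals. Ccl2 was at 2.70 and 2.35 CPM in the sham libraries 1 and 2 and at 83.2, 53.1, 69.8 and 52.7 CPM in the Luc libraries 1 to 4 (25.6 ± 6.34-fold, log2 fold change 4.20, adjusted p = 4.4e-05). Ccl7 was at 1.43 and 1.62 CPM in sham and 42.4, 23.9, 32.8 and 24.6 CPM at 4 h (20.3 ± 5.92-fold, adjusted p = 0.00011). Ccl12 was at 1.21 and 0.254 CPM in sham and 6.74, 3.51, 5.52 and 3.72 CPM at 4 h, a log2 fold change of 1.78 (adjusted p = 0.0042) that was not called without sham library 2 (0.078).

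Ccl4 was at 0.0978 and 0.0952 CPM in sham, an estimated 3 reads in each, and at 15.2, 10.6, 11.0 and 10.1 CPM in the Luc hearts at 4 h. The ratio of pooled reads was 121.41 (95% exact interval 55.63 to 331.44; adjusted p = 1.2e-06). Ccl3 rose less, to between 3.68 and 4.33 CPM (log2 fold change 2.17, adjusted p = 0.018), and was not called without sham library 1 (0.22), sham library 2 (0.074) or Luc library 1 (0.053). Ccl6 (14.8 to 21.2 CPM against 14.2 and 8.31 CPM), Ccl9 (14.6 to 26.8 against 13.9 and 7.87 CPM) and Ccr1 (3.09 to 6.01 against 1.89 and 1.17 CPM) lay above both sham libraries but had adjusted p-values of 0.6, 0.31 and 0.13. Ccr2 was between 0.800 and 1.02 CPM at 4 h, inside the sham values of 1.15 and 0.773 CPM.

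At 24 h in Luc hearts, 6 genes were higher than sham, the same 5 and Ccr1, and 34.1% of all genes were called, 25.3% higher, with 3172 higher and 1103 lower, or 2292 and 2043 with median-ratio rescaling and 1836 and 2483 with equal totals. Library A stood apart for the Ccr2 ligands, with Ccl2 at 282, 64.2 and 56.8 CPM and Ccl7 at 89.1, 23.3 and 22.3 CPM in libraries A, C and D. Ccr1 was at 7.99, 4.89 and 2.98 CPM (log2 fold change 1.25, adjusted p = 0.021; 0.098 without library A, 0.067 without sham library 1, 0.13 without sham library 2). Ccr2 stayed at 0.888, 0.857 and 0.862 CPM, and the log2 fold change to sham was -0.06, with a 95% interval from -0.77 to 0.65. Ccl6, at 27.5, 6.13 and 12.1 CPM, overlapped sham, and Ccl9, at 32.6, 14.5 and 16.8 CPM, had an adjusted p-value of 0.086.

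Between 4 h and 24 h, 2 of the 9 genes rose in Luc hearts, Ccl3 to 24.3, 9.16 and 15.7 CPM (log2 fold change 1.70, adjusted p = 0.0043) and Ccl12 to 20.1, 8.14 and 13.4 CPM (1.30, 0.0021). Of all genes, 32.3% were called in this comparison, 24.5% higher, with 3079 higher and 979 lower, or 1968 and 1788 with median-ratio rescaling and 1708 and 1839 with equal totals. Ccl4 was at 10.2, 8.94 and 11.4 CPM at 24 h and overlapped its 4 h values. Ccr1 also overlapped its 4 h values (log2 fold change 0.04, limma adjusted p = 0.95). For Ccl2, whose log2 change was 0.66 with all libraries, it was -0.072 without library A.

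**Figure D2:**
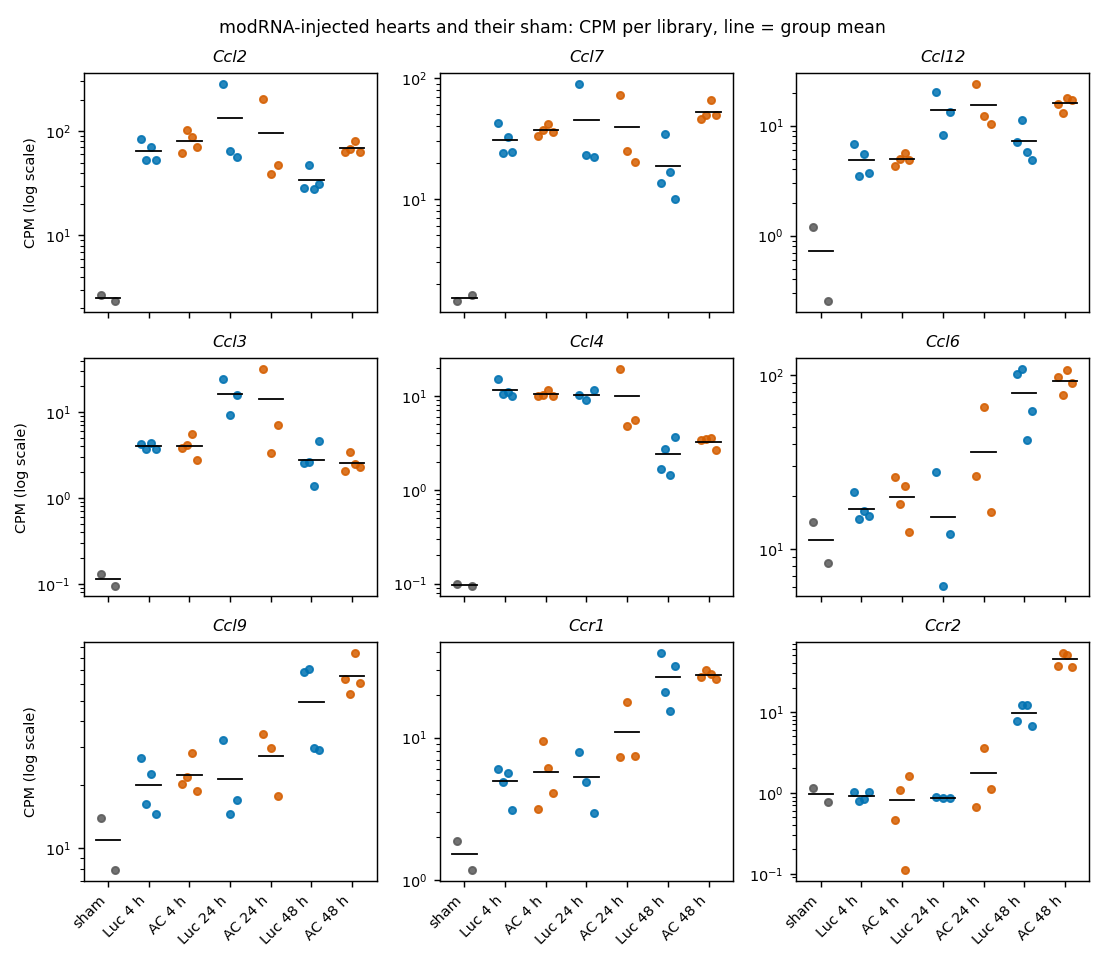
CPM of each gene (log scale) in every library of the second table, for sham (grey), Luc (blue) and AC (orange) hearts, with a line at the group mean. Ccl2, Ccl7, Ccl12, Ccl3 and Ccl4 were far above sham from 4 h on, whereas Ccl6, Ccl9, Ccr1 and Ccr2 had their highest group means at 48 h, where Ccr2 in AC hearts lay above all Luc hearts.

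From 24 h to 48 h the Luc hearts split the genes into those that fell and those that rose. All 9 were called, in a comparison in which 41.9% of all genes were called, 9.32% higher and 32.6% lower. That split of all genes, 1170 higher and 4088 lower, was 2003 and 2086 with median-ratio rescaling and 3255 and 945 with equal totals, and the median log2 change over all genes was -0.25, -0.03 and 0.18 in the 3 settings. Ccr2 rose from below 0.9 CPM to 7.81, 12.0, 6.63 and 12.0 CPM in libraries 1 to 4 (log2 fold change 2.47 ± 0.29, 11.1 ± 3.25-fold), and Ccr1 to 39.3, 20.9, 31.8 and 15.5 CPM (2.14, 5.08 ± 3.16-fold). Ccl6 rose to 101, 109, 61.9 and 42.5 CPM (2.43), and Ccl9 to 68.1, 70.6, 29.2 and 29.8 CPM, which overlapped library A at 24 h (1.14; adjusted p = 0.053 without library C at 24 h). These 4 rises kept their direction under each alternative tried.

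Ccl3 fell to 2.59, 2.66, 4.58 and 1.38 CPM (log2 fold change -2.16, adjusted p = 0.00051) and Ccl4 to 1.68, 2.75, 3.68 and 1.44 CPM (-1.77, 0.00011), with no overlap with 24 h. Ccl2 fell to 28.5, 47.7, 31.3 and 27.6 CPM (-1.59, 0.0079), and was not called without library A at 24 h (0.098) or with equal totals (0.067). For Ccl7 (-1.05, adjusted p = 0.048) and Ccl12 (-0.82, 0.028), the 24 h and 48 h values overlapped. Ccl7 had an adjusted p-value of 0.42 without library A at 24 h, and 0.096, 0.14 and 0.073 without Luc library 1, 3 or 4 at 48 h. Ccl12 had 0.18 and 0.076 without library A or D at 24 h, and 0.08 and 0.065 without library 3 or 4 at 48 h, and neither was called under either rescaling. At 48 h all 9 genes were higher than sham, Ccl6, Ccl9 and Ccr2 for the first time in Luc hearts, with 30.1% of all genes called, 13.7% higher, with 1714 higher and 2060 lower, or 2502 and 1286 with equal totals. Ccl3 had an adjusted p-value of 0.01 there, which became 0.067 or 0.06 without sham library 1 or 2.

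**Figure D3:**
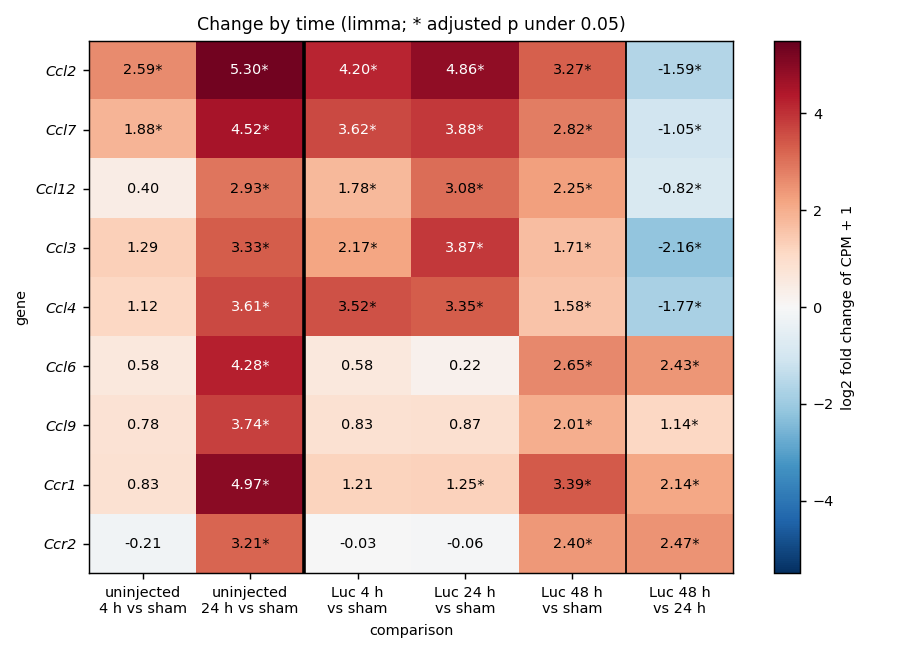
Log2 fold change of CPM + 1 of each gene (rows) in 6 time comparisons (columns; the thick line separates the 2 tables), red for higher and blue for lower, with an asterisk for a limma adjusted p-value under 0.05. The last column shows the fall of Ccl2, Ccl7, Ccl12, Ccl3 and Ccl4 and the rise of Ccl6, Ccl9, Ccr1 and Ccr2 from 24 h to 48 h in Luc hearts.

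Part of the leukocyte markers rose from 24 h to 48 h in Luc hearts, as did Ccl6, Ccl9, Ccr1 and Ccr2, while the other 5 genes fell. At 4 h, 3 of 8 neutrophil markers were higher than sham (78.9 to 166 CPM against 3.30 and 21.9 CPM), as were 2 of 4 erythroid markers (1703 to 2558 CPM against 190 and 631 CPM). Neutrophil sums in the second table cover all 10 markers of the list, of which 8 were tested. The summed monocyte and macrophage markers were 206 to 314 CPM at 24 h and 340 to 542 CPM at 48 h, with 6 of 12 higher, and the summed neutrophil markers were 62.1 to 116 and 137 to 450 CPM, with 5 of 8 higher and 1 lower. All 7 cardiomyocyte markers were lower at 48 h. All 4 atrial markers were higher at 24 h than in sham (median log2 fold change 4.15) and than at 4 h (3.99). They summed to 362 to 603 CPM at 24 h and 533 to 1169 CPM at 48 h. From 24 h to 48 h, 3 of the 4 were lower and 1 higher, so the sum can rest on 1 gene. The part of all these markers in the results for Luc hearts was not tested.

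The groups at 24 h differed between the tables in the receptors. Uninjected hearts had Ccr2 between 26.4 and 57.1 CPM and Ccr1 between 39.2 and 117 CPM, whereas Luc hearts at 24 h had Ccr2 between 0.857 and 0.888 CPM and Ccr1 between 2.98 and 7.99 CPM. Summed neutrophil markers were 311 to 1953 CPM in the former (9 genes) and 62.1 to 116 CPM in the latter (10 genes). Ccl2 ranges were 69.3 to 114 and 56.8 to 282 CPM. The cardiomyocyte markers summed to 20010 to 33251 CPM in uninjected hearts and to 57937 to 74235 CPM in Luc hearts at 24 h. In the sham hearts of the second table they summed to 46653 and 46871 CPM. Injection, library set, scaling and these marker levels differ together between the groups and cannot be told apart, so no test was made.

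AC was compared with Luc modRNA at each time, which asks whether the injected message changed these genes. At 4 h and at 24 h, 0 of the 9 genes were called by limma, and at an unadjusted p-value under 0.05 there were 0 and 2 genes. The background was 0.00796% at both times, which is 1 gene, Asah1 itself. At 4 h the groups overlapped for all 9 genes, with log2 differences from -0.15 for Ccr2 to 0.30 for Ccl2. The 95% intervals were -0.70 to 0.40 for Ccr2 and -0.56 to 1.17 for Ccl2, so differences within these intervals were not excluded. At 24 h the 2 genes were Ccl6 (log2 difference 1.18, adjusted p = 0.97) and Ccr1 (0.88, 0.99). AC library C held the highest Ccl6, at 65.2 CPM against 26.1 and 16.3 CPM in A and D, and the highest Ccr1 and Ccr2, at 17.9 and 3.54 CPM.

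At 48 h the receptor Ccr2 and its ligands Ccl7 and Ccl12 were higher in AC hearts. These were 3 of the 9 genes, beside 15.3% of all genes called, 12.1% higher. The all-gene split of 1516 higher and 410 lower became 822 and 802 with median-ratio rescaling, and the median over all genes went from 0.14 to 0.00, with the same 3 genes called. Ccr2 was at 37.4, 53.4, 50.9 and 36.3 CPM in the AC libraries 1, 2, 4 and 5 and at 7.81, 12.0, 6.63 and 12.0 CPM in the Luc libraries 1 to 4. The lowest AC heart was above the highest Luc heart, and the means differed 4.62 ± 1.64-fold (log2 difference 2.12 ± 0.27, adjusted p = 5.6e-05).

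Ccl7 was at 46.0, 49.8, 65.5 and 49.9 CPM in AC hearts and 13.6, 34.7, 10.0 and 16.8 CPM in Luc hearts, without overlap (2.81 ± 1.70-fold, log2 difference 1.58 ± 0.39, adjusted p = 0.0095). Ccl12 was at 15.7, 13.1, 17.9 and 16.9 CPM and 7.04, 11.3, 4.91 and 5.78 CPM, also without overlap (2.19 ± 0.904-fold, 1.08 ± 0.27, adjusted p = 0.011). Luc library 3 held the lowest Ccr2, Ccl7 and Ccl12, and without it only Ccr2 was called, with adjusted p-values of 0.051 for Ccl7 and 0.053 for Ccl12.

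Ccl2, the third Ccr2 ligand of that cluster, was at 62.8, 68.0, 80.0 and 62.6 CPM in AC hearts and 28.5, 47.7, 31.3 and 27.6 CPM in Luc hearts. The groups did not overlap and the means differed 2.02 ± 0.614-fold, but the log2 difference of 1.02 (95% interval 0.15 to 1.89) gave an adjusted p-value of 0.1. It was 0.0091 in a fit of these 2 groups alone. The other 5 genes overlapped and did not pass the test. For Ccr1, at 26.8, 29.9, 27.9 and 25.7 CPM in AC and 39.3, 20.9, 31.8 and 15.5 CPM in Luc hearts, the log2 difference was 0.12 (-0.53 to 0.77). The differences were -0.04 for Ccl3 (-0.86 to 0.77), 0.38 for Ccl4 (-0.18 to 0.94), 0.32 for Ccl6 (-0.46 to 1.11) and 0.50 for Ccl9 (-0.12 to 1.12).

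**Figure D4:**
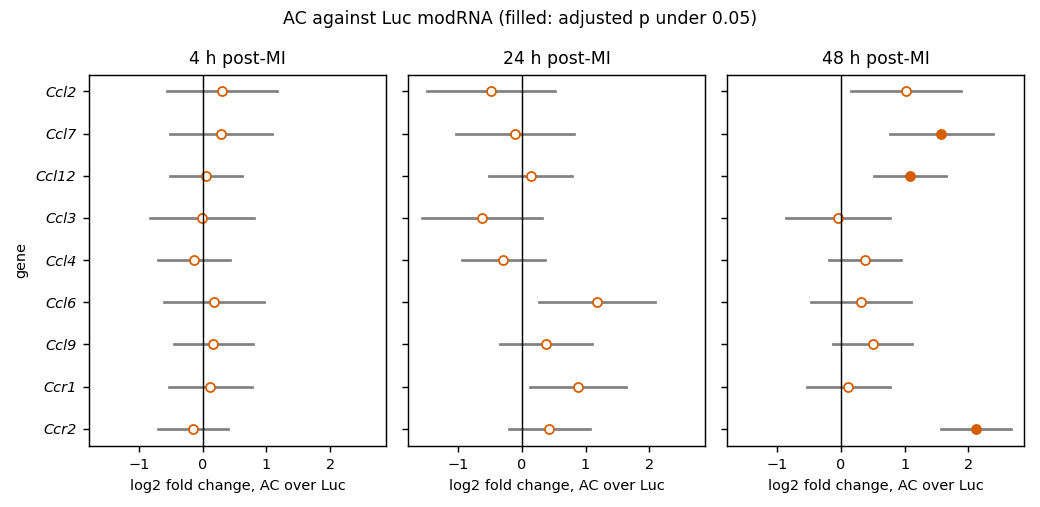
Log2 fold change of AC over Luc modRNA hearts for each gene at 4 h, 24 h and 48 h post-MI, with 95% confidence intervals from limma and filled points for an adjusted p-value under 0.05. The filled points are Ccl7, Ccl12 and Ccr2 at 48 h.

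The AC difference of Ccr2 itself changed with time. It was larger at 48 h than at 4 h by 2.27 on the log2 scale (adjusted p = 0.0048; 3.35% of all genes called, 2.88% higher) and larger at 48 h than at 24 h by 1.69 (adjusted p = 0.026; 2.56% of all genes called, 2.23% higher), the latter not called with a pseudocount of 0.1 (0.27). The all-gene splits of 362 higher and 59 lower and of 280 and 42 became 267 and 187 and 162 and 127 with median-ratio rescaling. For Ccl7 these differences were 1.29 (0.2) and 1.68 (0.14), and for Ccl12 1.03 (0.15) and 0.94 (0.25).

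Markers that moved with AC at 48 h were those of several cell types. Of the monocyte and macrophage markers, 6 of 12 were higher in AC hearts, with sums of 567 to 815 against 340 to 542 CPM. Of the neutrophil markers, 0 of 8 were higher and 1, Retnlg, was lower (sums 123 to 170 and 137 to 450 CPM). Fibroblast markers were higher in 3 of 5 (1208 to 1964 against 718 to 1070 CPM), and cardiomyocyte markers lower in 2 of 7 (23008 to 29553 against 31449 to 45080 CPM). The resident macrophage list had 1 higher and 2 lower of 6. The higher gene was Cx3cr1, which is also counted among the other CC genes below. Of the 4 atrial markers, 1 was called higher, so their sum can rest on 1 gene. They summed to 1227 to 2966 CPM in AC and 533 to 1169 CPM in Luc hearts, without overlap. The part of all these markers in the differences of Ccr2, Ccl7 and Ccl12 was not tested.

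Across the 24 libraries of the second table the genes fell loosely into 2 sets (a description, since the libraries share groups, times and scaling). The Pearson correlation of log2(CPM + 1) was 0.96 for Ccl2 with Ccl7, 0.83 for Ccl2 with Ccl4 and 0.81 for Ccl7 with Ccl12. It was 0.93 for Ccl6 with Ccl9, 0.91 for Ccl6 with Ccr1 and 0.82 for Ccr1 with Ccr2. Between the sets it ran from -0.45 for Ccl4 with Ccr2, through 0.01 for Ccl2 with its receptor Ccr2, to 0.70 for Ccl9 with Ccl12. Ccl12 lay between the sets, with 0.59 for Ccr1 and 0.40 for Ccl4. The sets follow the chromosome in part. Neighbours correlated, with 0.76 for Ccl2 with Ccl12 and 0.78 for Ccl3 with Ccl4, beside the values above for Ccl6 with Ccl9 and Ccr1 with Ccr2. The cluster of Ccl9, Ccl6, Ccl3 and Ccl4 was divided between the sets. Ccl3 had a coefficient of 0.79 with Ccl2 of the other cluster and of -0.15 with Ccl6 of its own. In the first table, where all 9 rose together at 24 h, every pair correlated between 0.85 and 0.99 (n = 10).

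**Figure D5:**
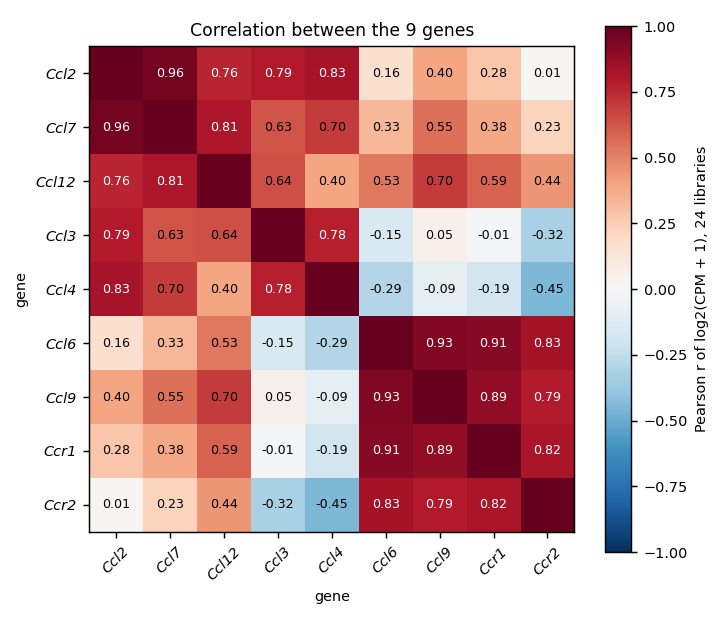
Pearson correlation of log2(CPM + 1) between each pair of the 9 genes over the 24 libraries of the second table, from blue (negative) to red (positive). Ccl6, Ccl9, Ccr1 and Ccr2 form a block at the lower right with coefficients of 0.79 and above, and Ccl3 and Ccl4 are near 0 or negative with them.

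Divided by transcript length (mean CPM per kilobase of the RefSeq-matched transcript), the order of levels changed in part with infarction. In sham hearts Ccl6 led, at 4.76 and 7.82 CPM per kilobase in the first and second table, and Ccl3 and Ccl4 were lowest, at or below 0.24. Ccl2 led at 24 h in uninjected hearts, at 113, close to Ccl6 at 106, whose library ranges overlap. In Luc hearts Ccl2 led at 4 h (79.6) and 24 h (165), and at 48 h Ccl6 (54.6) and Ccl2 (41.6) led, while Ccr2 was last at all 3 times (0.31, 0.29 and 3.21). The Ccl2 mean of Luc hearts at 24 h rests largely on library A, at 282 CPM against 64.2 and 56.8 CPM in libraries C and D. In AC hearts at 48 h Ccl2 led (84.1), with Ccl7 (65.9) and Ccl6 (64.4) behind it, and Ccr2 reached 14.8.

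Other genes of the CC system were taken from a list of 28, with CX3C ligand and receptor and the atypical receptors that bind chemokines without signalling through G proteins. At 4 h in uninjected hearts, 0 of the 11 tested were called, 4 of them with an unadjusted p-value under 0.05, beside 2.37% of all genes called. At 24 h 6 were higher and 4 lower than sham, beside 35.6% and 30.3% of all genes. Those higher included the venular scavenger Ackr1 (log2 fold change 2.11), the eosinophil attractant Ccl11 (1.30) and Ccl24 (1.17), whereas Ackr4, which removes Ccl19 and Ccl21, was lower (-1.58). In Luc hearts at 4 h, Ccl5, a T cell and monocyte attractant, was the only gene of 14 tested that was called (2.33, adjusted p = 0.018), beside 1.55% of all genes. At 24 h 7 of the 14 were higher and 2 lower than sham, beside 25.3% and 8.79% of all genes. Those higher were led by Ccl5 (4.78) and Ccl19 (4.13), a ligand of Ccr7. From 24 h to 48 h 6 fell, including Ccl19 (-3.21) and Ccl5 (-3.20), and 2 rose, including Cx3cr1 (1.22). Of all genes, 32.6% fell and 9.32% rose in that comparison.

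At 48 h, 5 of the 14 were higher in AC than in Luc hearts and 0 were lower, beside 12.1% and 3.27% of all genes. Cx3cr1, the fractalkine receptor of patrolling monocytes and macrophages, was between 8.90 and 14.5 CPM in AC and between 0.862 and 4.09 CPM in Luc hearts (log2 difference 1.97, adjusted p = 0.00014). Also higher were Cx3cl1, the ligand of Cx3cr1 (0.82, 0.0049), Ccl8 (0.77, 0.042) and Ackr4 (0.59, 0.035).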

How the data were processed

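RNA-seq libraries of mouse LV tissue were analysed from 2 tables of gene values. Per the study's methods, the authors aligned reads to mm10 with STAR, estimated counts per RefSeq gene in Partek Flow and scaled them by TMM; those methods describe the first table, and the second was taken to be made alike. The deposited values are CPM, counts relative to the scaled library size; in the second table every gene carries an added 1, which was subtracted. Whether counting used strand was not given in the sources used here. Depth was estimated from the value of 1 read. Between 82.1% and 85.2% of values under 200 reads were whole multiples of it within 0.02 reads, too few for a count test.

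On log2(CPM + 1), a single linear model per table was fitted by limma 3.58.1 (eBayes with trend, R 4.3.3) to each gene averaging 1 CPM or more, with Benjamini-Hochberg adjustment over all genes tested and a threshold of 0.05. A fold change on this scale understates that of low genes. Fold values with ± are ratios of mean CPM with propagated SD; log2 values carry the SE of the fit. The method was tested on simulated data. The members and lists were chosen with earlier results of these data known. Named were the 9 genes, up to 5 genes of the list of other CC genes per comparison with the largest changes past the threshold, and the 3 genes most correlated with each of Ccl2, Ccl3, Ccl6 and Ccr2. Alternatives were a pseudocount of 0.1, no filter or an average of 10 CPM or more, rescaling by median ratios or to equal totals, no trend, array weights, a replicate block, only the groups compared, and each library left out. Values for 1 of the other CC genes are not reported here.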

Additional observations from a re-analysis of the deposited data

Results flagged for a closer look

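In 45 groups of 4 libraries, 1 gene each, 2 held a library at a distance from its group, where chance gives about 1 in 20. Ccr2 in library C at 24 h post-MI, uninjected, was at 57.1 CPM, while the other 3 libraries lay between 26.4 and 28.8 CPM; without it Ccr2 was still called against sham. Ccl4 in AC library 3 at 4 h was at 11.5 CPM, while the other 3 lay between 9.99 and 10.1 CPM, a gap that is small beside the distance to sham.

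The difference between AC and Luc modRNA in Ccr2 was larger at 48 h than at 24 h by 1.69 on the log2 scale and larger than at 4 h by 2.27, both by a limma test of the difference itself. The Luc libraries at 24 h lay within 0.857 to 0.888 CPM, an estimated 22.0 to 24.4 reads each.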

How the results depend on the processing

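Of 799 values of called genes recomputed under an alternative, 760 stayed called in the same direction, 39 were no longer called and 0 turned. Of 766 values of genes not called, 9 became called and 53 changed sign. At 24 h in uninjected hearts all 9 genes stayed called against sham and against 4 h in each setting run. Sham hearts held an estimated 3 to 6 reads of Ccl3 and 3 to 5 of Ccl4 per library, and the second table has 2 sham libraries. The causes of the changes below were not tested, except that only 5 genes were left to test in the second table with a mean of at least 10 CPM.

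The number of the 9 genes called at 4 h against sham in uninjected hearts went from 2 to 4 with a pseudocount of 0.1 and to 5 with array weights. With a mean of at least 10 CPM the numbers were 2 for Luc 4 h, 3 for Luc 24 h and 5 for Luc 48 h against sham, 0 for Luc 24 h against 4 h, 5 for Luc 48 h against 24 h and 1 for AC against Luc at 48 h. Array weights gave 3 for Luc 4 h against sham. Leaving out a library gave 3 to 5 there (3 without sham library 2), 6 to 9 for Luc 48 h against 24 h, and 1 to 3 for AC against Luc at 48 h (1 without Luc library 3). The larger AC difference at 48 h than at 24 h held for 0 genes with a pseudocount of 0.1.

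Signs that turned, all of differences that were not called, were these. With array weights, Ccl6 in Luc 24 h against sham was -0.068, AC against Luc was 0.044 for Ccl3 at 4 h, 0.14 for Ccl7 at 24 h and 0.0069 for Ccl3 at 48 h, the AC difference at 48 h against 24 h was -0.23 for Ccl9, and that against 4 h was -0.076 for Ccl6, -0.19 for Ccl9 and 0.15 for Ccr1. With median-ratio rescaling, Luc 24 h against 4 h was -0.12 for Ccl9 and -0.10 for Ccr1, AC against Luc at 48 h was -0.026 for Ccr1, and the AC difference was -0.064 for Ccl9 (48 h against 24 h) and -0.0072 for Ccl6 (48 h against 4 h). With equal totals, Ccl6 in Luc 24 h against sham was -0.065, Ccl9 and Ccr1 in Luc 24 h against 4 h were -0.17 and -0.14, and Ccl3 in AC against Luc at 48 h was 0.013. Without both A libraries at 24 h, an alternative chosen after seeing the data like the next, Ccl6 in Luc 24 h against sham was -0.30, and without both C libraries Ccl12 in AC against Luc at 24 h was -0.052.

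Leaving out 1 library at a time, the log2 ranges that crossed 0 were, against sham, -0.17 to 0.11 for Ccr2 at Luc 4 h, and -0.30 to 0.70 for Ccl6 and -0.21 to 0.076 for Ccr2 at Luc 24 h. For Luc 24 h against 4 h they were -0.072 to 1.08 for Ccl2, -0.88 to 0.12 for Ccl6, -0.39 to 0.59 for Ccl7, -0.30 to 0.26 for Ccl9 and -0.26 to 0.33 for Ccr1. For AC against Luc at 4 h they were -0.15 to 0.13 for Ccl3, -0.057 to 0.20 for Ccl12, -0.13 to 0.32 for Ccr1 and -0.36 to 0.059 for Ccr2. At 24 h they were -1.22 to 0.26 for Ccl2, -1.46 to 0.0094 for Ccl3, -0.87 to 0.052 for Ccl4, -0.66 to 0.53 for Ccl7 and -0.20 to 0.43 for Ccl12, and at 48 h -0.25 to 0.16 for Ccl3 and -0.11 to 0.32 for Ccr1.

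The libraries share only a number: the correlation of deviations of same-numbered AC and Luc libraries ran from -0.14 to 0.25 at 4 h. At 48 h, AC library 5 and Luc library 3 had no same-numbered partner, so the blocked comparison of AC with Luc did not draw on them. With a replicate block, 3 genes were called in AC against Luc at 48 h as without it, with Ccl2 gained (1.04, adjusted p = 0.021 by limma) and Ccl12 lost (0.91, 0.062), Ccl3 was at 0.20, and the numbers called were 9, 9, 5, 0 and 0 in the other comparisons that could be blocked (uninjected 24 h against sham and 4 h, Luc 4 h against sham, and AC against Luc at 4 h and 24 h).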

Other observations

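Over the 24 libraries of the second table, among 7714 genes averaging 10 CPM or more, those whose levels were closest to Ccl2 were Marcksl1 (Pearson r = 0.93), Il1b (0.92), the cytokine interleukin 1 beta, and Ptgs2 (0.91), the inducible cyclooxygenase. Closest to Ccl3 were Rnd1 (0.96), Zc3h12a (0.96), an RNase that degrades cytokine mRNAs, and Tlr2 (0.96). Ccl6 ran with Fcgr3 (0.94) and Tyrobp (0.93), an Fc receptor and a signalling adaptor of myeloid cells, and with Capg (0.92). Ccr2 ran with Spp1 (0.97), which encodes osteopontin, Col5a2 (0.97), a collagen chain, and Ssr1 (0.97).

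Over the 10 libraries of the first table, among 7689 genes, the closest were Hbegf, Gm13889 and Adamts4 for Ccl2 (0.990, 0.990 and 0.988), Il1b, Fam107b and Plek for Ccl3 (0.993, 0.993 and 0.988), Pdlim7, Fcgr3 and Fcgr2b for Ccl6 (0.997 each) and Me2, Rbpj and Tut1 for Ccr2 (0.996, 0.995 and 0.992). Fcgr3 was among the 3 for Ccl6 in both tables, and Il1b was among those for Ccl3 in the first and for Ccl2 in the second. These coefficients are descriptions over libraries that share groups, and no test was made.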
